A study of Caenorhabditis elegans with 2 samples.

Results

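Coding exons held 10493 of the 30000 candidate regions listed for the Caenorhabditis elegans zinc finger protein ZTF-3. A region was counted when its summit, the base the peak caller marks as its highest point, fell in the protein-coding part of an exon of a protein-coding gene in the Ensembl annotation of the WBcel235 assembly. The regions come from chromatin immunoprecipitation with sequencing of whole animals of strain OP614, with an antibody against GFP, in 2 biological replicates that the labels number 4 and 5. All animals were mixed-sex young adults, 58 h old and grown from starved L1 larvae, that carried the unc-119(tm4063) mutation and the integrated transgene wgIs614, which holds ztf-3::TY1::EGFP::3xFLAG and unc-119(+). The deposited lists are a pooled list of peaks and background, a list of the same kind from each replicate and a thresholded list of 534 peaks chosen from the pooled list by reproducibility. There was a single group, so no treated or mutant animals stood against it, and animals without the tag were not analysed here. Whole animals mix all tissues, so occupancy of few cells and weak occupancy of many cannot be told apart.

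In chromatin immunoprecipitation, DNA bound by a tagged protein is recovered with an antibody and sequenced, and places with more fragments than a control are listed as candidate regions. Zinc finger proteins of the C2H2 kind bind DNA through small folded fingers, and most transcription factor sites described in the compact C. elegans genome lie upstream of genes or in introns. Coding exons are under selection for protein sequence, are richer in guanine and cytosine than introns and intergenic DNA, and are crossed by RNA polymerase II whenever the gene is transcribed. A list that holds peaks and background keeps many weak regions on purpose, so that reproducibility between replicates can be judged.

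The coding sequence at the summits of the 5 genes with the strongest thresholded regions on chromosomes III and X is shown here, since these regions had the highest signals of those on III and X. Each window holds 151 bases centred on the summit, read 5′ to 3′ on the strand of the gene from the RefSeq sequence of WBcel235. Capitals mark coding bases and lower case marks any other base.
dos-3: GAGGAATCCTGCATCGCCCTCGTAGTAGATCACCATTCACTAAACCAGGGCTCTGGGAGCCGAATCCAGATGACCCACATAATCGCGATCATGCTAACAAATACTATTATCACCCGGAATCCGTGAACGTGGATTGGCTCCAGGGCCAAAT
pks-1: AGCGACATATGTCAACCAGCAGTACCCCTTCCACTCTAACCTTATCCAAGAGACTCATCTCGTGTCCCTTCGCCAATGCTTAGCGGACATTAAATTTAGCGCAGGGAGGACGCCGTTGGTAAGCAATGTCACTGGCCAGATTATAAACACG
best-18: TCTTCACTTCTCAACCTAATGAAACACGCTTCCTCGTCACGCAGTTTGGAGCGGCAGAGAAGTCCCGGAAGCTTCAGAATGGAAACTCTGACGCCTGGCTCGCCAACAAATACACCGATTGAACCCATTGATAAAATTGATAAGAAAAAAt
lelo-2: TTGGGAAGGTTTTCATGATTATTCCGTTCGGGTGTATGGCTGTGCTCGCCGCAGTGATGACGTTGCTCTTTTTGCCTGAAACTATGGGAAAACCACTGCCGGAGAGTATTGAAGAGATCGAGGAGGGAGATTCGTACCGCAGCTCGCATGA
prmt-5: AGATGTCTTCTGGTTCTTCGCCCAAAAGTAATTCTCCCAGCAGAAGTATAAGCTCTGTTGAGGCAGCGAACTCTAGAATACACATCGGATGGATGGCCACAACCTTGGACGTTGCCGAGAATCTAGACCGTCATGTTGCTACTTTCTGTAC
The windows of dos-3, pks-1, lelo-2 and prmt-5 were coding over all 151 bases, and that of best-18 over 150 bases. They lie at chrIII:835933-836083 for dos-3, chrX:5429492-5429642 for pks-1, chrIII:10214594-10214744 for best-18, chrIII:1420013-1420163 for lelo-2 and chrIII:5230643-5230793 for prmt-5. The hexamer AGAGAC occurred in the pks-1 window and ACGCAG in the best-18 window, each a single time on the printed strand. Neither these hexamers nor ACACAC was found on either strand of the other 3 windows.

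Coding exons were common among all candidate regions and uncommon among the strongest. They held 35.0% of the pooled regions (10493 of 30000, exact binomial 95% interval 34.4% to 35.5%), beside 24.6% of the bases of the 6 nuclear chromosomes. They held 9.36% of the thresholded peaks (50 of 534, 7.03% to 12.2%). These intervals, like all those given for shares of regions, cover counting error only, since regions are not replicates. In the separate lists, coding exons held 34.6% of the regions of replicate 4 and 32.6% of those of replicate 5. Among the 534 strongest regions of each, the coding share was 11.0% in replicate 4 (59 regions) and 12.2% in replicate 5 (65 regions). Both counts were slightly above the 50 of the thresholded list, and each share was far under the share of coding exons in the same replicate's whole list.

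The coding share differed by rank. The 534 thresholded peaks are the 534 pooled regions of highest signal, so ranks 1 to 534 are the thresholded list and gave the 9.36% above. The share was 17.4% at ranks 535 to 1000, 27.6% at ranks 1001 to 2000, 34.2% at ranks 2001 to 5000 and 38.0% at ranks 5001 to 10000. It was 36.6% at ranks 10001 to 20000 and 35.0% at ranks 20001 to 30000. Intergenic regions ran the other way, with 60.7% of ranks 1 to 534 and 29.9% of ranks 20001 to 30000. Introns held between 25.3% and 29.6% of every rank bin.

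**Figure D1:**
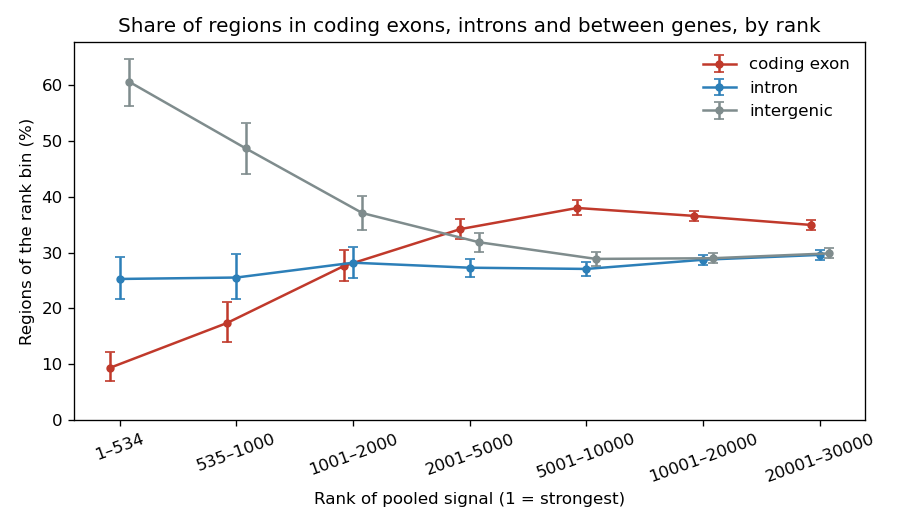
Share of the pooled regions of each rank bin (y axis, percent) that had the summit in a coding exon, an intron or between genes, by rank of pooled signal (x axis, 1 is the strongest), with exact binomial 95% intervals. The coding-exon share is 9.36% in the first bin and 35.0% in the last, while the intergenic share is 60.7% in the first and 29.9% in the last.

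Read by members, 50 of the 10493 coding-exon regions were in the thresholded list, 0.477% (0.354% to 0.628%), where 1.78% of all pooled regions were. The share was 2.48% among all other regions (484 of 19507), 1.58% among intron regions, 2.22% in 5′ untranslated exons, 0.987% in 3′ untranslated exons and 3.52% between genes. The interval of coding exons did not overlap that of introns (1.33% to 1.87%) or that of intergenic regions (3.15% to 3.92%).

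The signal, the peak caller's own value for each region, differed between coding exons and the rest in its upper tail and not in its middle. The median was 27.8 in coding exons (quartiles 23.6 and 34.3) and 28.0 in all other regions (23.5 and 35.6). The 99th percentile was 63.4 in coding exons and 103 in all other regions. The highest coding-exon signal was 197, in dos-3, and the highest of the whole list was 1860, in an intron. A q-value under 0.05 was listed for 251 coding-exon regions (2.39%) and for 1172 other regions (6.01%). The largest −log10 q in the list, 2.48, was shared by 11 coding-exon regions and 142 other thresholded regions. Nearly all regions had the same width of 444 bp, 10489 of the 10493 in coding exons and 29938 of 30000 in all, so width did not separate the classes.

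The 50 thresholded coding-exon regions lay in 48 genes and had signals of 75.0 to 197, with a median of 86.5 (quartiles 77.8 and 103), against a median of 96.2 for the 484 other thresholded peaks. Their median pooled rank was 334, against 257.5 for the others, and 16 of them were among the 267 strongest. The members nearest to the threshold were named for their place at it. Just inside stood W09D6.5 with a signal of 75.0 at rank 528 and C39F7.1 with 75.0 at rank 527. Just outside stood pmt-2, which encodes a phosphoethanolamine methyltransferase, with 74.5 at rank 537 and rpc-2 with 74.0 at rank 546. The signals on both sides of the threshold thus differed by about 1 signal unit or less.

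Of the 20 strongest, 8 lay in a last coding exon, 8 in a first coding exon and 4 in a middle exon. Last exons held most of the very strongest. The dos-3 region, in a gene of the family of secreted Notch co-ligands with a DOS motif, had a signal of 197 and its summit in exon 11 of 11, at 91.1% of the coding sequence (chrIII:835873-836152). It ranked 42 in replicate 4 and 34 in replicate 5. Here and for the genes that follow, a rank is that of the strongest replicate region over the pooled summit; its own summit lay outside coding exons in replicate 4 for kin-14 and pals-26, and in replicate 5 for suro-1, R10E11.6, kvs-3, pdl-1 and F01D5.10. The region of suro-1, which encodes a carboxypeptidase-like protein known for its part in the cuticle, had a signal of 140 in exon 10 of 10, at 94.9% of the coding sequence, and ranked 76 in replicate 4 and 100 in replicate 5. The region of best-18, a bestrophin anion channel homologue, had 131 in exon 7 of 7 at 94.6% (chrIII:10214447-10214890) and ranked 127 and 70 in replicates 4 and 5. The lelo-2 region had 117 in exon 7 of 7 at 93.5% (chrIII:1419983-1420116) and ranked 272 and 54. All 4 of these regions were among the strongest 534 of both replicates.

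The other last-exon regions of this set were less even between replicates. The C42D8.9 region had a signal of 116 in exon 2 of 2 (chrX:5106091-5106534) and ranked 114 in replicate 4 and 950 in replicate 5. The nuaf-1 region, in a gene for a mitochondrial complex I assembly factor, had 113 in exon 5 of 5 and ranked 101 in replicate 4 and 1251 in replicate 5. The stdh-1 region, in a gene for a steroid dehydrogenase family protein, had 92.4 in exon 4 of 4 and ranked 180 in replicate 4 and 9394 in replicate 5. The pals-26 region, in a gene of the family known from immunity to intracellular pathogens, had 89.0 in exon 5 of 5, at 99.8% of the coding sequence, and ranked 298 and 577. It lay within 500 bp of the non-coding RNA gene srpr-1.1. Of these 4, replicate 5 placed each below its strongest 534, whereas replicate 4 placed each among them.

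First coding exons gave the second large group. The prmt-5 region, in the gene of a protein arginine methyltransferase, had a signal of 117 (chrIII:5230496-5230939). With its summit 148 bp downstream of the annotated transcript start, it ranked 186 in replicate 4 and 125 in replicate 5. Y56A3A.22 had 115, kin-14, a gene of the tyrosine kinase family, 115, and Y49A3A.3 113, and each ranked among the strongest 534 of both replicates. In R10E11.6 the summit was 3 bp from the annotated transcript start, at base 4 of the coding sequence (0.314% of its length). The signal there was 101, with ranks of 142 and 616. In kvs-3, which encodes a voltage-gated potassium channel, the summit was 11 bp from the annotated start, at base 10 of the coding sequence. The signal there was 100, with ranks of 220 and 2155. In both genes the annotated transcript start lies at or next to the coding start, and no mapped start of transcription was used. The pdl-1 region (95.7), in the gene of a delta-type phosphodiesterase subunit homologue, and the T26A5.8 region ranked among the strongest of both replicates. All 8 lay in a promoter window, taken here as 1000 bp upstream to 200 bp downstream of an annotated transcription start. Of all regions in first coding exons, 75.2% did.

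The 4 strongest regions in middle exons had varied surroundings. The pks-1 region, in the gene of a large polyketide synthase, had a signal of 170 in exon 22 of 30, at 49.7% of a coding sequence of 23256 bp (chrX:5429345-5429788), and lay more than 15 kb from the nearest annotated start. It ranked 70 in replicate 4 and 48 in replicate 5, and pks-1 held 6 coding-exon regions in all. The W06H8.6 region had 110 in exon 3 of 6 and ranked 123 and 734. The Y48G8AL.13 region had 104 in exon 2 of 4, only 19 bp from an annotated start, and ranked 299 and 198. The F01D5.10 region had 89.8 in exon 6 of 7, within 500 bp of the small nucleolar RNA gene F01D5.12, and ranked 243 and 303.

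Over the whole pooled list, coding-exon regions were spread along genes nearly in proportion to coding bases. First coding exons held 1175 coding-exon regions, middle exons 7510, last exons 1691 and single-exon coding sequences 117. These are 11.2%, 71.6%, 16.1% and 1.12% of the members, beside 10.9%, 72.8%, 15.2% and 1.05% of coding bases. Per 100 kb of coding sequence there were 44.1 regions in first exons, 42.1 in middle exons, 45.3 in last exons and 45.4 in single exons. Median signals were 28.2 in first, 27.5 in middle and 28.6 in last exons.

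The thresholded regions were not spread that way. The list held 15 of the first-exon regions (1.28%, 0.716% to 2.10%), 20 of the middle-exon regions (0.266%, 0.163% to 0.411%), 15 of the last-exon regions (0.887%, 0.497% to 1.46%) and 0 of the 117 single-exon regions. The intervals of first and last exons lay above that of middle exons. The strongest 534 regions of replicate 4 held 16 first-exon, 26 middle-exon and 16 last-exon regions, and those of replicate 5 held 16, 28 and 19 of them. First and last exons differed in what lay nearby. All 15 thresholded first-exon regions had the summit in a promoter window, as did 4 of the 20 in middle exons and 0 of the 15 in last exons. Over all coding-exon regions these shares were 75.2% in first, 13.0% in middle and 22.9% in last exons. Among first-exon regions outside promoter windows, 0 of 291 were thresholded, for which the interval ends at 1.26%, and inside them 15 of 884 were (1.70%, 0.953% to 2.78%). Among last-exon regions outside promoter windows, 15 of 1304 were thresholded (1.15%, 0.645% to 1.89%).

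Cut into deciles of the coding sequence, 10 parts of equal length, the thresholded regions numbered 10, 5, 4, 3, 3, 2, 1, 5, 7 and 10 from start to end. The first and last deciles together held 20 of 50 (40.0%, 26.4% to 54.8%), beside 1987 of all 10493 coding-exon regions (18.9%, 18.2% to 19.7%). Of the 10 in the first decile, 10 lay in a promoter window, and of the 10 in the last decile, 0 did. Of all coding-exon regions, 72.8% of those in the first decile and 19.3% of those in the last lay in such a window. The part of position in this contrast was not tested. Their median signal was 94.0 in the first decile, 103 in the last decile and 83.9 in the deciles between. The strongest 534 regions of replicate 4 had 35.6% of their 59 coding-exon members in these end deciles, and those of replicate 5 36.9% of 65, beside 18.8% and 19.5% over the whole lists of replicates 4 and 5. Over all coding-exon regions, deciles held between 991 and 1161 regions, with the most in decile 9.

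**Figure D2:**
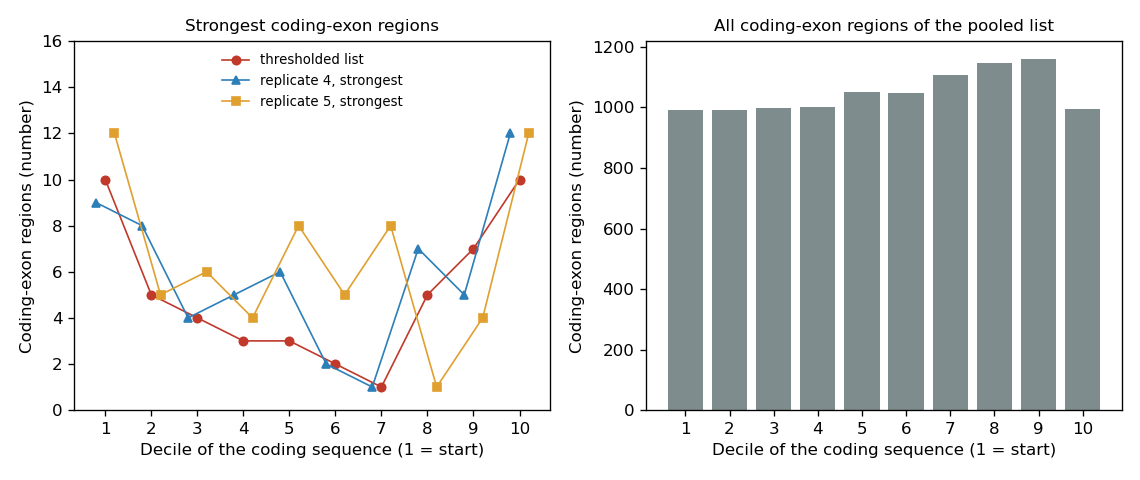
Left, number of coding-exon regions (y axis) in each decile of the coding sequence (x axis, 1 is the start) among the thresholded list and the strongest 534 regions of replicates 4 and 5. Right, the same for all 10493 coding-exon regions of the pooled list. The thresholded regions number 10 in the first decile, 1 in decile 7 and 10 in the last, while all members number 991 to 1161 in every decile.

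By deciles, the weight on the ends was seen in the longer coding sequences. In those of at least 1000 bp, 17 of 30 thresholded regions lay in an end decile (56.7%, 37.4% to 74.5%), beside 1539 of all 7871 coding-exon regions (19.6%). In those under 1000 bp, 3 of 20 did (15.0%, 3.21% to 37.9%), beside 448 of 2622 (17.1%). With 20 regions and deciles of few bases, this split cannot show that such weight is absent from short sequences. By distance from the coding start, over all lengths, 1.10% of regions were thresholded within 100 bp and 0.866% at 100 to 300 bp. Farther on, the share was 0.269% to 1000 bp, 0.458% to 3000 bp and 0.218% beyond. From the coding end the shares were 0.990%, 0.702%, 0.422%, 0.381% and 0.127%. The share of coding-exon regions that were thresholded also differed with length. It was 1.04% in coding sequences under 500 bp (6 of 577), 0.685% at 500 to 1000 bp, 0.512% at 1000 to 2000 bp, 0.314% at 2000 to 4000 bp and 0.141% at 4000 bp and over (2 of 1417). The density of candidate regions did not follow length, at 40.9 to 45.0 per 100 kb of coding sequence in these 5 classes.

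**Figure D3:**
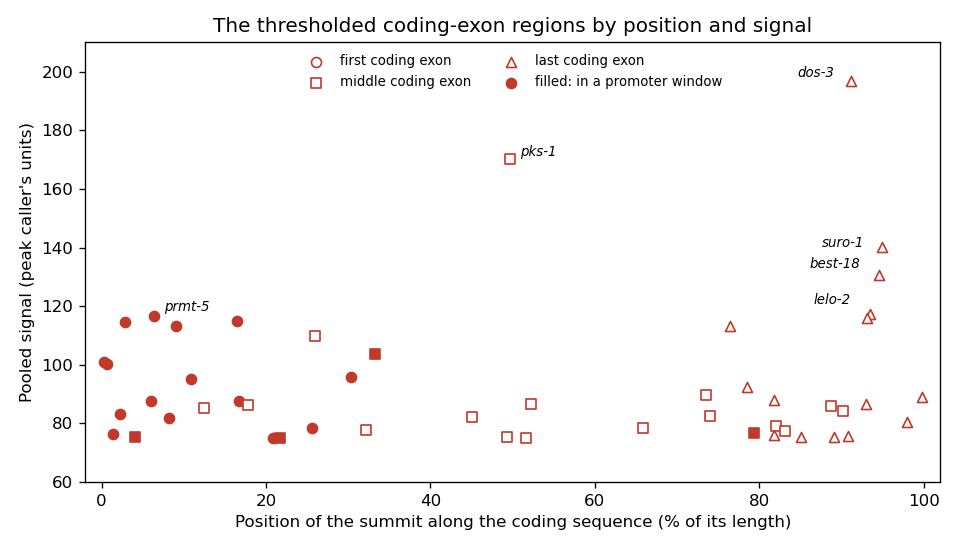
The 50 thresholded coding-exon regions by the position of the summit along the coding sequence (x axis, percent of its length from the start) and pooled signal (y axis, peak caller's units); symbols give the exon kind and filled symbols mark summits in a promoter window. Filled circles gather at the left end and open triangles at the right, with dos-3 at 197 the highest and pks-1 at 170 alone near the middle.

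Many coding-exon regions reached past the exon. The exon under the summit had a median length of 299 bp, against a median of 145 bp over all coding exons and of 251 bp when exons are weighted by their bases. A median of 74.8% of the bases of a region were coding, 64.0% in the thresholded ones. All bases were coding in 1519 regions (14.5%), of which 4 were thresholded. At least 50% were coding in 8733 regions (83.2%) and in 36 of the 50 thresholded regions. Where the gene had 2 or more coding transcripts, the summit was coding in every transcript for 3120 of 4542 regions (68.7%) and for 19 of 19 thresholded regions.

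Recovery in both replicates was compared next. Of the coding-exon regions, 3412 had the summit inside a region of both replicate lists (32.5%, 31.6% to 33.4%, or 18.9% when summits had to lie within 100 bp), where 35.1% of all pooled regions did and 36.4% of the other regions (35.7% to 37.1%). The intervals of coding-exon and other regions did not overlap. For intron regions alone the share was 34.2% (33.2% to 35.2%), an interval that overlapped that of coding exons. Replicate 4 alone listed 77.5% of the coding-exon regions and 78.5% of the others, and replicate 5 listed 48.1% and 51.5%. Of the intron regions, replicate 4 listed 77.1% and replicate 5 listed 50.2%. In each of the 7 rank bins, the share listed by both replicates was lower for coding-exon regions than for all other regions. Both replicates listed 98.0% of coding-exon and 98.8% of other regions at ranks 1 to 534, 88.9% and 91.9% at ranks 535 to 1000, 83.3% and 84.0% at ranks 1001 to 2000, and 68.9% and 70.7% at ranks 2001 to 5000. The shares were 53.2% and 54.4% at ranks 5001 to 10000, 27.7% and 29.7% at ranks 10001 to 20000, and 9.38% and 10.8% at ranks 20001 to 30000. The difference between coding-exon and other regions within a bin was not tested.

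The ranks in the replicates were loosely related within coding exons. Spearman's rho of the ranks in replicates 4 and 5 was 0.20 over the 3412 coding-exon regions listed in both and 0.39 over the 7104 other regions. Within those others it was 0.21 in 3′ untranslated exons, 0.32 in introns, 0.42 in 5′ untranslated exons and 0.46 between genes. The low value was thus shared by 3′ untranslated exons. The coefficients are descriptions, given that all regions share the same libraries and that the coding-exon regions spanned a narrower range of signal. Among the strongest 534 of both replicates were 29 coding-exon regions (0.276%, 0.185% to 0.397%), where 1.03% of all pooled regions were, and 279 of the other regions (1.43%).

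Of the 50 thresholded coding-exon regions, 42 were among the strongest 534 of replicate 4 and 25 among those of replicate 5. Both held 20 of them (40.0%, 26.4% to 54.8%), and 239 of the 484 other thresholded peaks (49.4%, 44.8% to 53.9%). These intervals overlap. The 20, like the 25 of replicate 5, include both regions of dos-3 and both of suro-1. Each of these pairs was matched to the same region of replicate 5, so the interval treats as separate what is a single place. The replicate region behind the rank had its own summit outside coding exons for 4 of the 50 in replicate 4 and for 11 in replicate 5. Counting only replicate regions with a coding-exon summit, 12 of the 50 were among the strongest of both (24.0%). Another 3 were among the strongest of neither. The median rank of the 50 was 321.5 in replicate 4 and 496 in replicate 5, against 254.5 and 347 for the other thresholded peaks. The better ranks in replicate 4 were thus shared by the other thresholded peaks. The lowest rank was 1191 in replicate 4 and 25233 in replicate 5.

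A few thresholded coding-exon regions rested mainly on replicate 4, and they were named for their ranks. The mec-6 region, in a gene for an accessory protein of touch-receptor channels, had a pooled signal of 75.8 and ranked 357 in replicate 4, and replicate 5 listed no region there. C15F1.5 had 76.6 and ranked 343 in replicate 4 and 25233 in replicate 5. The aagr-2 region, in a gene for an acid alpha-glucosidase family protein, had 75.3 and ranked 340 and 24058. The pgal-1 region had 86.6 and ranked 208 and 5307. With stdh-1, 4 thresholded coding-exon regions ranked past 5000 in replicate 5.

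**Figure D4:**
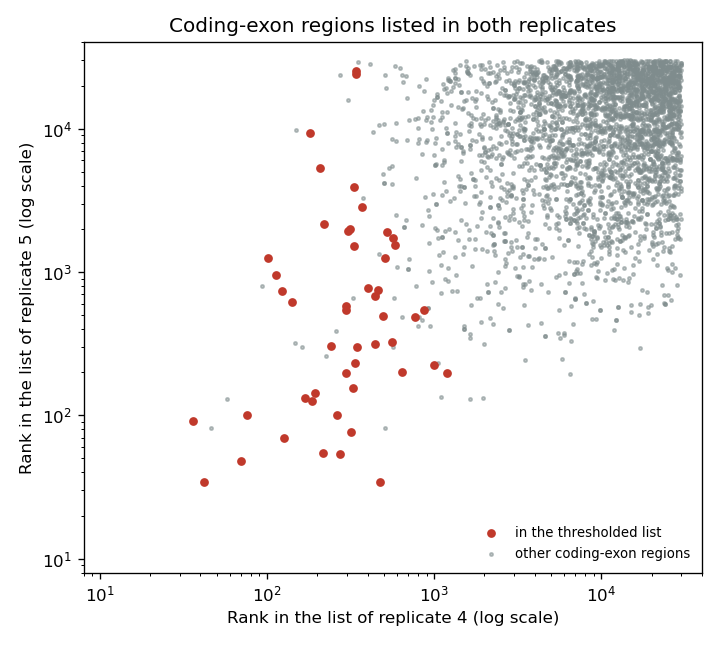
Rank in the list of replicate 4 (x axis, log scale) against rank in the list of replicate 5 (y axis, log scale) for the 3412 coding-exon regions listed in both, with the thresholded ones in red. Each rank is that of the strongest replicate region over the pooled summit. The thresholded points span ranks 36 to 1191 on the x axis and 34 to 25233 on the y axis.

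Only dos-3 and suro-1 held more than a single thresholded coding-exon region. In dos-3 the summits were 199 bp apart in exon 11, with signals of 197 and 88.1. In suro-1 they were 205 bp apart in exons 10 and 9, with signals of 140 and 85.8. In both genes the neighbouring regions overlapped, and both were matched to the same region of replicate 5, at rank 34 for dos-3 and rank 100 for suro-1, so each pair counts as a single place.

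Most genes held no coding-exon region or a single region. Of 19985 protein-coding genes, 7111 (35.6%) held a coding-exon region. A single region was found in 4946 genes, 2 in 1508, 3 or 4 in 536, 5 to 9 in 109 and 10 or more in 12. The median coding length was 870 bp in genes without a region, 1125 bp in genes with 1 region and 15033 bp in genes with 10 or more. Across the 19985 genes, Spearman's rho of the number of regions and coding length was 0.40, a description over genes that share these libraries.

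The 12 genes with 10 or more regions, of which 6 were tied at 10, were mostly genes of large structural or scaffold proteins. The spectraplakin gene vab-10, the ankyrin gene unc-44 and dig-1, which encodes a giant matrix protein, held 18 each. The titin homologue ttn-1 held 16, the HECT ubiquitin ligase eel-1 13, the muscle attachment protein gene let-805 12, and the alpha-spectrin gene spc-1, the chromodomain helicase gene chd-7, the moulting gene mlt-11, the kettin gene ketn-1, the hemicentin gene him-4 and the ryanodine receptor gene unc-68 10 each. Per kb of coding sequence they ranged between 0.351 in ttn-1 and 1.37 in spc-1, beside 0.842 over the 7111 genes with a region. That comparison set leaves out genes without a region. Over all 19985 genes the density was lower, at 42.8 regions per 100 kb. Their strongest coding-exon signals lay between 38.4 in ttn-1 and 53.8 in dig-1, and none of them was in the thresholded list, which began at 74.7. The best rank among them was 1528, in dig-1. Over all genes with 5 or more regions, 3 of 791 regions were thresholded (0.379%), near the 0.477% of all coding-exon regions; they lay in mnk-1, pks-1 and dhc-4. Of these, mnk-1, named for its count, held 6 regions in 2121 bp of coding sequence. Between 1 and 7 of the regions of each gene were listed in both replicates. Within genes, neighbouring regions overlapped in 883 of 3382 pairs (26.1%), so the counts do not all stand for separate places.

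Gene families differed in how densely their coding sequence was covered. Over all protein-coding genes there were 42.8 coding-exon regions per 100 kb of coding sequence, 42.3 in the list of replicate 4 and 40.0 in that of replicate 5. The subunits of the vacuolar ATPase, the proton pump of acidic compartments, had 89.9 per 100 kb in the pooled list, 78.7 in replicate 4 and 89.9 in replicate 5, with regions in 15 of 21 genes. Collagens, which build the cuticle and basement membranes, had 88.6 (78.7 in replicate 4 and 71.1 in replicate 5), with regions in 112 of 175 genes. Cytosolic ribosomal protein genes had 77.4 (79.9 and 70.0 in replicates 4 and 5), with regions in 27 of 82 genes. Actins and tubulins had 73.7 (73.7 and 54.3), and proteasome subunits 70.7 (89.8 and 78.9). The yolk protein genes of the vitellogenin family had 68.8, but 44.7 in replicate 4, near all genes, and 65.4 in replicate 5. The respiratory chain and ATP synthase had 66.7 (48.0 and 64.0). Of the 29 gene lists, 14 lay above all genes in the pooled list and in both replicate lists.

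Chemoreceptor, F-box and major sperm protein genes lay at the other end. Chemoreceptor genes had 21.8 per 100 kb (24.4 in replicate 4 and 22.1 in replicate 5), with regions in 266 of 1365 genes. Genes of the F-box family had 20.7 (20.7 and 24.2), with regions in 59 of 322 genes. Major sperm protein genes, listed with the nspc and nspd genes, had 10.5 (10.5 and 5.24), with regions in 2 of 59 genes. Of the 29 lists, 8 lay below all genes in all 3 lists of regions, and 7 lay on different sides in different lists. Histone genes were among those 7, with 18.9 in the pooled list but 26.4 in replicate 4 and 41.5 in replicate 5. Histone and major sperm protein genes have near-identical copies, and how reads that match several copies were counted is not given in the sources used here, so their values are uncertain.

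Across genes grouped by the GC content of the coding sequence, density rose with GC, while some gene lists departed from that order. Genes in the lowest quintile of coding GC (up to 38.8%) had 19.8 regions per 100 kb, and the next quintiles had 31.6, 41.7, 51.7 and 70.0, the last at a coding GC of 46.9% and over. The same order held in replicate 4, with 21.7, 32.7, 41.7, 49.9 and 66.2 per 100 kb, and in replicate 5, with 22.1, 30.4, 39.1, 46.7 and 62.3. Collagens had a coding GC of 54.5%, ribosomal protein genes 53.5%, chemoreceptors 37.6% and F-box genes 38.6%, against 42.8% over all genes. All 14 lists of higher density had a higher coding GC than all genes, as did 23 of the 29 lists. Vacuolar ATPase genes had 45.0%, within quintile 4, with 89.9 regions per 100 kb, above the 51.7 of that quintile. The part of GC in the densities was not tested. The thresholded regions numbered 4, 12, 13, 6 and 15 in the quintiles of rising GC, with no steady order.

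**Figure D5:**
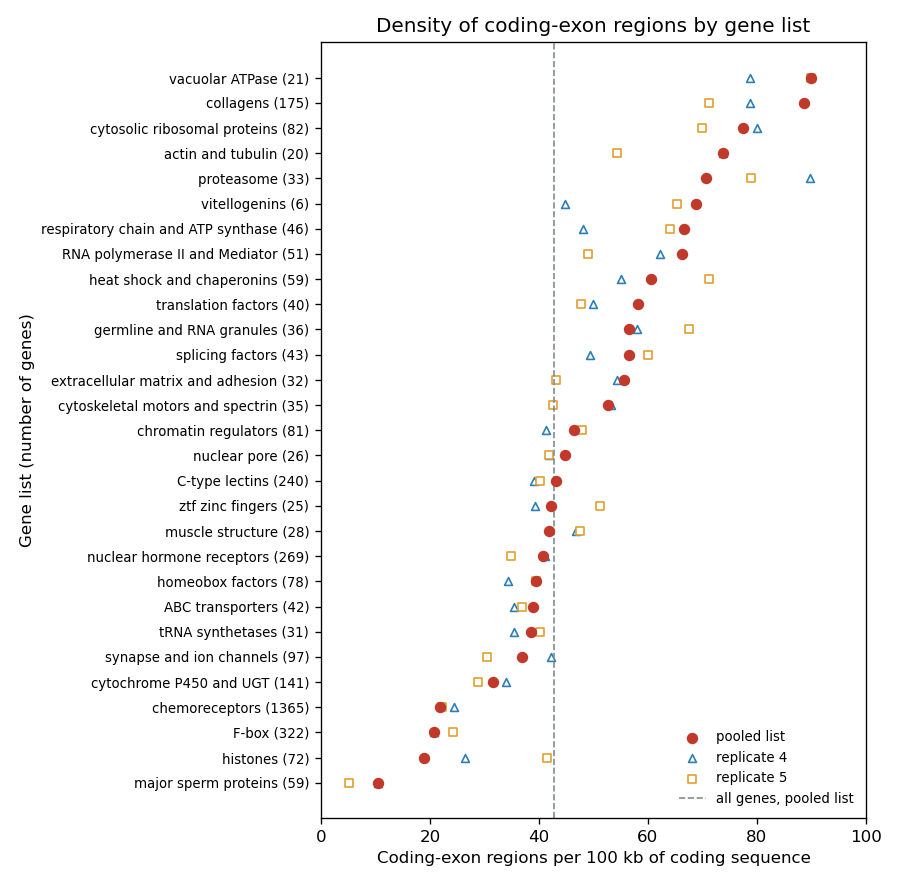
Coding-exon regions per 100 kb of coding sequence (x axis) for the 29 gene lists (y axis, with the number of genes) in the pooled list and in replicates 4 and 5; the dashed line is the pooled value over all genes, 42.8. In the pooled list, vacuolar ATPase and collagen genes lie highest at 89.9 and 88.6 and major sperm protein genes lowest at 10.5; in replicate 4 the proteasome lies highest at 89.8.

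Collagen, vacuolar ATPase, ribosomal protein and vitellogenin genes together held 227 coding-exon regions, 0 of them thresholded, too few to tell from the 0.477% over all coding-exon regions. The strongest collagen region, in col-181, had a signal of 61.8, the strongest vacuolar ATPase region, in unc-32, 60.9, the strongest ribosomal protein region, in rla-1, 65.9, and the strongest vitellogenin region, in vit-2, 67.9. In the other lists the highest signals included 72.1 in sdha-1, a subunit of succinate dehydrogenase, 66.2 in klp-7, a kinesin-13 gene, 65.4 in the HSP70 gene hsp-1 and 62.7 in the troponin T gene tnt-3. Of the 29 lists, only that of cytoskeletal motors and spectrin held a thresholded coding-exon region, 1 of its 99. Over all coding-exon regions the thresholded share was 0.477%. The thresholded region of that list lay in dhc-4. This dynein heavy chain gene had a pooled signal of 84.4 in exon 32 of 35, at 90.1% of the coding sequence (chrIII:10989637-10990080). The replicate regions with a coding-exon summit there ranked 736 in replicate 4 and 1221 in replicate 5, beside stronger regions with an intron summit at ranks 36 and 92. The pooled summit lay within 500 bp of the small nuclear RNA gene R07E5.16. The lists do not hold every gene of a kind. The potassium channel gene kvs-3, which had a thresholded region, was in none of them.

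RNA genes lay near some of the thresholded coding-exon regions. A non-coding RNA gene of any kind lay within 500 bp of 10 of the 50, and of 728 of all coding-exon regions (6.94%). The share was 18.1% of the other pooled regions and 14.2% of all pooled regions. It was not counted among the other thresholded peaks, so the 10 of 50 cannot be called particular to coding exons. By class, genes annotated as ncRNA lay near 5 of the 50 and 405 of all 10493, piRNA genes near 1 and 216, small nuclear RNA genes lay near 3 and 15, small nucleolar RNA genes near 3 and 63, and transfer RNA genes near 2 and 58. The pdl-1 region lay near the small nucleolar RNA genes C27H5.9 and C27H5.10, and the W09D6.5 region, chosen after its values were seen, near the spliced leader gene sls-2.14. Neither an RNA gene nor a promoter window was found at 25 of the 50. Of these 25, dos-3, pks-1, suro-1, best-18 and lelo-2 were the strongest.

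Base composition and hexamers differed between coding exons and the rest. The 101 bases around the summit had a median GC of 43.6% in coding exons and 39.6% in the other regions. Among thresholded regions the order was the reverse, at 42.6% in coding exons and 48.5% elsewhere. Hexamers were counted on both strands of these 101 bases, and the 3 searched had been chosen from earlier results on these data. ACGCAG was found in 2.20% of coding-exon and 4.12% of other windows (3.45% of all 30000), AGAGAC in 3.88% and 6.07% (5.31% of all), and ACACAC in 2.53% and 6.98% (5.42% of all). In 3′ untranslated exons, ACGCAG (1.62%) and AGAGAC (3.86%) were no more frequent than in coding exons, whereas ACACAC was (5.39%). In the thresholded list, ACGCAG was found in 2 of 50 coding-exon windows and in 15.1% of the others, AGAGAC in 5 of 50 and 19.6%, and ACACAC in 4 of 50 and 18.6%. A match is a run of letters and no statement about binding.

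Chromosomes shared the coding-exon regions evenly and the thresholded ones unevenly. Coding exons held 35.8% to 36.9% of the pooled regions on each autosome and 29.5% on X, where coding bases are 20% of the chromosome, against 22.6% to 27.0% on the autosomes. Chromosome III held 19 of the 50 thresholded regions (38.0%) and 15.9% of all coding-exon regions. There, 1.14% of the coding-exon regions were thresholded (0.685% to 1.77%), against 0.477% over all chromosomes. Over all pooled regions the thresholded share was also higher there, at 2.41% (110 of 4571) against 1.78%. Chromosome IV held 1, in mec-17, named after its value was seen, the gene of an alpha-tubulin acetyltransferase. Of the strongest 534 regions of each replicate, chromosome III held 18 of the 59 coding-exon regions of replicate 4 and 23 of the 65 of replicate 5, and chromosome IV held 8 in each.

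The genes carried by the transgene showed no strong coding-exon region. In ztf-3 itself there was 1, with a signal of 35.2 at rank 7442, and neither replicate listed a region over its summit. Replicate 5 listed 1 coding-exon region elsewhere in the gene, and replicate 4 listed none in its coding exons. In unc-119, 4 pooled regions lay in the gene and 0 of them in a coding exon.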

How the data were processed

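ChIP-seq regions of 2 biological replicates were taken from 4 deposited peak lists on ce11, the build of WBcel235. Per the file headers, the authors derived the replicate lists from each replicate's alignments and 1 control alignment, and the thresholded list from the replicate and pooled lists by reproducibility. The deposited signal and −log10 q-value of each region are the authors' values. The score of the deposited summit column, an offset in bases, gave the summit. Which aligner and which peak caller made them is not given in the sources used here. The lists hold no read counts, so depth is unknown.

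Summits were placed in Ensembl release 115 (Python 3.11.15, numpy 2.4.6, pandas 2.3.3, scipy 1.17.1), with placement tested on simulated data. A summit in several coding sequences went to the gene with the longest. A replicate lists a region where its own region covers the pooled summit, and the rank is that of the strongest such region. Shares carry exact Clopper-Pearson 95% intervals, and no p-value was computed, since there was 1 group.

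The members, gene lists and hexamers were chosen with earlier results of these data known. Named genes hold the 20 strongest thresholded coding-exon regions, the 10 highest numbers of regions (with ties), 2 or more thresholded regions, or the strongest regions of a gene list, or are carried by the transgene. Others were named after their values were seen, for the reason given beside them. The alternatives placed regions by centre, by coding bases or by longest transcript, used each replicate alone, and left out repeated entries and regions near promoters or RNA genes.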

Additional observations from a re-analysis of the deposited data

How the results depend on the processing

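Of the values recomputed under alternatives, 33 stayed inside the 95% interval of the reported value and 12 did not. The coding-exon share of the pooled list was 33.9% when at least 50% of a region's bases had to be coding. In the list of a single replicate, used in place of the pooled list, it was 32.6% to 34.6%. The coding-exon share of the thresholded list was 5.99% in its stronger 267 peaks, where 0.152% of coding-exon regions lay. In the 534 strongest regions of a single replicate, used in place of the thresholded list, it was 11.0% to 12.2%. First coding exons held 8.05% of coding-exon regions that also had at least 50% coding bases, and 14.2% when a first exon of any transcript counted. In the list of a single replicate they held 10.9% to 11.3%. Both replicates listed 18.9% of coding-exon regions when summits had to lie within 100 bp.

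The share of thresholded coding-exon regions in the end deciles was examined under alternatives chosen after seeing the data. It was 62.5% in the stronger 267 peaks, 56.7% in coding sequences of at least 1000 bp and 15.0% in shorter ones. Among coding-exon regions in the 534 strongest of a single replicate, used in place of the thresholded list, it was 35.6% to 36.9%. The share of the 50 among the strongest of both replicates was 24.0% when replicate summits had to be coding, also an alternative chosen after seeing the data. The causes were not tested.

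No paired analysis was possible because there was 1 group. With 50 thresholded coding-exon regions the intervals of their shares are wide, and without read counts the precision of single signals is unknown. A thresholded list drawn by signal from the pooled list is no independent check of that signal.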
